A study of Mus musculus with 6 samples.

Results

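The genes examined here are 10 genes of reactive gliosis, chosen by name (Gfap, Vim, Lcn2, Serpina3n, Stat3, Socs3, Osmr, C3, Cd44 and Edn2) and measured by RNA-seq of retinas of wild type C57BL/6 mice (C57BL/6J in the methods of the study). All 6 libraries came from eyes damaged by an intravitreal injection of NMDA, an agonist of glutamate receptors (2 μl, 100 mM). After 2 days the NMDA + PBS group (3 libraries) received PBS and the NMDA + SCF group (3 libraries) received stem cell factor (SCF), which binds the receptor c-kit (2 μl, 50 ng/μl). Retinas were collected 1 week later, from mice that the labels give as 5 weeks old and the study's methods as 4 weeks old at the start. The number of mice behind a library is not given, so p-values measure only the spread between these libraries. No library of undamaged retina was analysed here, so the comparison is between treatments of damaged retina and not with damage itself.

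Of the 10 genes, 8 could be compared among the 25202 genes with a value. The files use different transcript lists. NMDA + PBS replicate 1 and the 3 NMDA + SCF libraries share the first list, and NMDA + PBS replicates 2 and 3 share the second. Values were summed per gene over the transcripts in both lists, which hold 29 transcripts of these genes. Edn2 is listed only in the second list and Serpina3n is not analysed here. The values are FPKM, the fragments counted on a transcript divided by its length and by the total of the library, so levels of different genes can be set side by side. Between 3404318 and 4440573 fragments were counted per library, and the recovered fragments are given where a value rests on few of them. Values of a group are always given in the order of replicates 1, 2 and 3.

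Reactive gliosis is the response of Müller glia and astrocytes to injury. The cells enlarge, build more intermediate filaments and release proteins of inflammation. In the retina, cytokines of the interleukin 6 family act through receptors that contain gp130 or pair with it, and the kinases behind these receptors activate STAT3, a transcription factor that drives Gfap and its own inhibitor Socs3. Müller glia of the healthy rodent retina hold little GFAP, and its appearance in them is a widely used sign of retinal damage.

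STAT proteins bind the letters TTCNNNGAA, which read the same on both strands. Since STAT3 links several of these genes, the 250 bases before each gene's start in RefSeq (GRCm38.p6) were searched for them. All 10 genes had such a stretch, and 1 of the 10, that of Socs3, held the letters, against 7.02% of 32851 promoters of the same length. The stricter form TTCCNGGAA, which is contained in the first, was in 0 of the 10 and in 0.913% of all. The stretches of Vim, Osmr and Lcn2 lie inside the span of a listed coding transcript. For these genes the bases before that transcript's start were not searched. The Socs3 stretch lies at chr11:117969367-117969616 on the minus strand. The noncoding transcript ENSMUST00000132295 starts inside it, and the noncoding ENSMUST00000123255 starts further upstream. The coding transcript ENSMUST00000054002 starts downstream of it, at 117969186, so the bases directly before that start were not searched. The stretch is shown with the match in capitals, which begins 154 bases before the RefSeq start.
Socs3 promoter: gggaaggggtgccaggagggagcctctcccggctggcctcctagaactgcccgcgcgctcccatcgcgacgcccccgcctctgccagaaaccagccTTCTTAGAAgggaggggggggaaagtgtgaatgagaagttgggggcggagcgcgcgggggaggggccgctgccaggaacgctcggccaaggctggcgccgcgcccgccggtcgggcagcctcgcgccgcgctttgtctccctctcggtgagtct
A match of letters is a description and not evidence of binding, and genes without it may be bound elsewhere.

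Gfap, the intermediate filament protein of reactive glia, was the most abundant of the 8 genes. Its level was 46.5, 261 and 32.3 FPKM with PBS and 86.3, 182 and 159.7 FPKM with SCF. The 3 NMDA + SCF libraries lay above NMDA + PBS replicates 1 and 3 and below replicate 2, so the groups overlapped. The group means were 113 ± 128 FPKM in NMDA + PBS and 143 ± 49.99 FPKM in NMDA + SCF (mean ± SD, n = 3 libraries each). On log2(FPKM + 1), the scale of all fold changes here, Gfap was 0.88 higher with SCF (SE 0.74, 95% interval from -0.86 to 2.61, limma adjusted p = 0.688). The interval holds both a decrease and a rise of several fold. The exact permutation test gave p = 0.4 (two-sided), and the smallest p that 3 against 3 libraries allow is 0.1.

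Nearly all of the Gfap level came from the protein-coding transcript ENSMUST00000067444, which held between 88.8 and 96.8% of it in the 6 libraries. The other coding transcript, ENSMUST00000077902, had 1.47, 17.1 and 2.34 FPKM in the NMDA + PBS libraries and 5.39, 6.63 and 8.67 FPKM in the NMDA + SCF libraries. Both transcripts thus had the same highest library, NMDA + PBS replicate 2. The processed transcript ENSMUST00000127909 rested on at most 2 fragments in any library. The gene spans 102887336 to 102900912 on the minus strand of chromosome 11 (GRCm38), and the shift between the groups was 0.90 for the main transcript and 0.55 for the other one, neither past an adjusted p of 0.05 among the 45261 transcripts tested.

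The other intermediate filament gene, Vim, and Cd44, a receptor for hyaluronan, could be measured only poorly in these files. Vim was 0.44, 1.79 and 1.63 FPKM in the NMDA + PBS libraries and 0.70, 0.88 and 1.69 FPKM in the NMDA + SCF libraries, mostly from a transcript with a retained intron (ENSMUST00000191615, at most 14 fragments). The listed coding transcript of Vim, ENSMUST00000028062, had at most 3 fragments in a library, and 1 of the 3 coding transcripts that the annotation gives is in both lists. Vimentin is a main filament of Müller glia. Cd44 rested on between 0 and 7 fragments per library, nearly all from a transcript with a retained intron (ENSMUST00000124624). The log2 fold changes were -0.10 for Vim (SE 0.38) and -0.29 for Cd44 (SE 0.21), neither past the test (limma adjusted p = 0.943 and 0.673). With so few fragments the Cd44 value depends on the scale, at -1.29 with a pseudocount of 0.1 and -1.71 with voom.

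Osmr, Stat3 and Socs3 stand for the cytokine pathway. Osmr, which encodes the receptor subunit for oncostatin M, was 4.71, 21.01 and 7.84 FPKM with PBS and 9.92, 13.97 and 12.95 FPKM with SCF. Again the 3 SCF libraries lay inside the range that the NMDA + PBS libraries span. The group means were 11.2 ± 8.65 and 12.3 ± 2.11 FPKM (SD, n = 3 each), and the log2 fold change was 0.35 (SE 0.47, limma adjusted p = 0.799). The coding transcript ENSMUST00000022746 held between 77.7 and 99.6% of the level. The gene spans 6813577 to 6874969 on the minus strand of chromosome 15.

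Socs3, the feedback inhibitor that STAT3 induces, was 9.72, 68.5 and 13.8 FPKM in the NMDA + PBS libraries and 23.3, 33.4 and 45.8 FPKM in the NMDA + SCF libraries. NMDA + PBS replicate 2 was the highest of the 6 and replicates 1 and 3 were the lowest. The means were 30.7 ± 32.8 and 34.2 ± 11.3 FPKM (SD, n = 3 each), with a log2 fold change of 0.61 (SE 0.67, limma adjusted p = 0.749). Its coding transcript ENSMUST00000054002, which lies downstream of the stretch printed above, had 8.52, 51.6 and 11.0 FPKM with PBS and 18.0, 29.8 and 32.9 FPKM with SCF. The order of the libraries was the same for this transcript as for the gene, which spans 117966079 to 117970047 on the minus strand of chromosome 11.

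Stat3 was 12.6, 62.6 and 13.9 FPKM in the NMDA + PBS libraries and 20.9, 17.4 and 27.9 FPKM in the NMDA + SCF libraries. This level is that of incomplete transcripts: the listed coding transcript, ENSMUST00000103114, held between 0.23 and 1.07% of it, with at most 12 fragments in a library. The most abundant transcripts were ENSMUST00000137367, ENSMUST00000146971 and ENSMUST00000137093, all annotated with a retained intron. Of the 4 coding transcripts annotated for Stat3, 1 is in both lists. The gene spans 100885098 to 100939540 on the minus strand of chromosome 11. The log2 fold change was -0.05 (SE 0.57, 95% interval from -1.40 to 1.30, limma adjusted p = 0.981).

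Of the secreted proteins, C3, the central component of complement, varied most between the NMDA + PBS libraries. The gene spans 57203970 to 57228136 on the minus strand of chromosome 17. It was 0.97, 26.2 and 3.24 FPKM with PBS, from 17, 536 and 74 fragments of a single coding transcript (ENSMUST00000024988). With SCF it was 7.44, 9.90 and 12.4 FPKM, from 131, 177 and 220 fragments. The highest NMDA + PBS library was thus 27.0 times the lowest, while the highest NMDA + SCF library was 1.66 times the lowest. The means of 10.2 ± 14.0 and 9.91 ± 2.47 FPKM were nearly equal (SD, n = 3 each), whereas the log2 fold change was 0.81 (SE 0.87, limma adjusted p = 0.743), since the log scale gives 1 high library less weight. Lcn2, which encodes the iron-binding lipocalin 2, rested on 1 to 8 fragments in each library and on no coding transcript in both lists. Its log2 fold change was 0.09 (SE 0.56, limma adjusted p = 0.964).

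**Figure D1:**
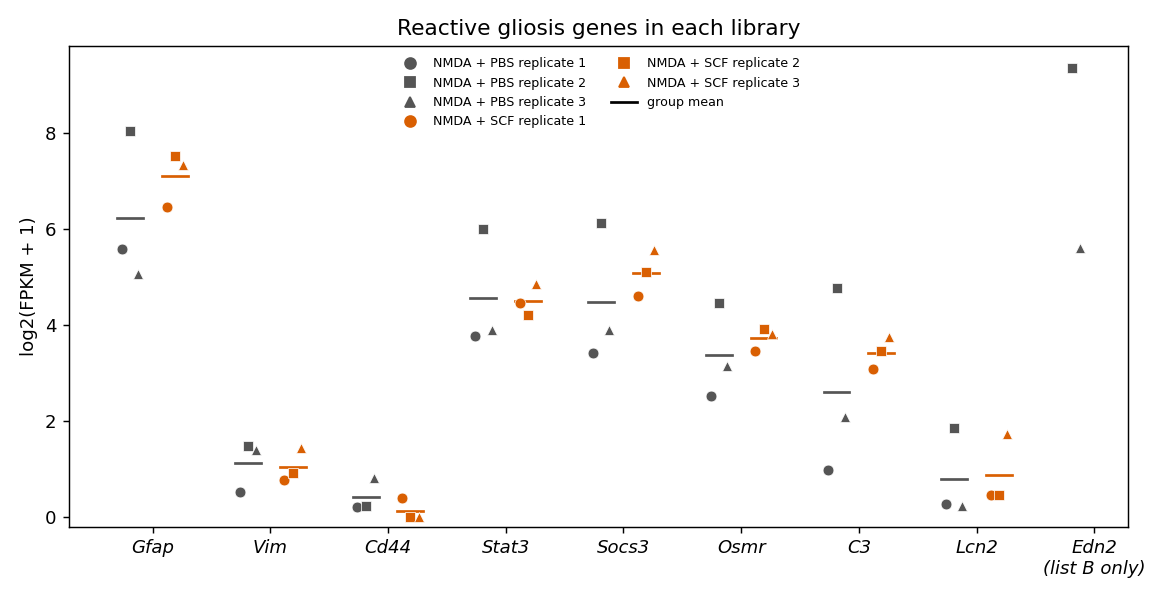
Level of each gene, as log2(FPKM + 1), in the 3 NMDA + PBS libraries (grey) and the 3 NMDA + SCF libraries (orange). Marker shapes give the replicate number and horizontal lines the group means. NMDA + PBS replicate 2 (grey square) is the highest of the 6 libraries for Gfap, Vim, Stat3, Socs3, Osmr, C3 and Lcn2, by a small margin for Vim and Lcn2. Edn2 has values in NMDA + PBS replicates 2 and 3 only.

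Over the 8 genes, none passed an unadjusted p of 0.05 (limma), whereas 9.22% of all genes tested did, 4.33% higher and 4.9% lower with SCF. At an adjusted p of 0.05, 0 of the 25202 genes passed (limma), 2324 had an unadjusted p of 0.05 or less, and voom on the recovered fragments called 2 genes. The groups overlapped for all 8 genes, while 14.1% of all genes had no overlap, 7.63% higher and 6.45% lower with SCF. The log2 fold change was positive for 5 of the 8, against 49.1% of all genes, and the median over the 8 was 0.22, against -0.01 for all genes. For 7 of the 8, Cd44 being the exception, all 3 NMDA + SCF libraries lay within the range of the NMDA + PBS libraries. The share of all genes for which this holds was not counted, so the count cannot be read as particular to these genes.

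The NMDA + PBS libraries did not form a uniform group for these genes. NMDA + PBS replicate 2 was the highest of the 6 libraries for 7 of the 8 genes, against 18.8% of all genes and 18.2% of those with a mean of at least 1 FPKM. For Vim and Lcn2 the margin over NMDA + SCF replicate 3 was small and rests on few fragments. Vim was 1.79 against 1.69 FPKM (16 against 12 fragments) and Lcn2 2.59 against 2.31 FPKM (8 fragments each). NMDA + PBS replicate 2 was at least 2-fold above both other NMDA + PBS libraries for 6 of the 8 on the log2(FPKM + 1) scale, against 2.6% of all genes and 3.13% of those with a mean of at least 1 FPKM. In FPKM it exceeded the next highest NMDA + PBS library 8.09-fold for C3, 5.62-fold for Gfap, 4.97-fold for Socs3, 4.51-fold for Stat3 and 2.68-fold for Osmr. Lcn2 also belongs to the 6 genes, but its ratio rests on 8 fragments against 1. The ratio of replicate 1 to replicate 3 was 1.44 for Gfap, 0.90 for Stat3, 0.71 for Socs3, 0.60 for Osmr and 0.30 for C3. It was 0.27 for Vim, where replicate 3 stood beside replicate 2, and 0.21 for Cd44, both from few fragments.

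Set against the 14013 genes with a mean of at least 1 FPKM, the SD of log2(FPKM + 1) among the NMDA + PBS libraries was at percentile 97.8 for C3, 96.2 for Gfap, 95.1 for Socs3, 93.3 for Stat3, 88.7 for Osmr, 86.7 for Lcn2 and 63.3 for Vim, while Cd44 has a lower mean. For Gfap this SD was 1.59 in NMDA + PBS and 0.57 in NMDA + SCF, and for C3 it was 1.95 and 0.33. Over all 14013 genes the median SD was 0.42 in NMDA + PBS and 0.26 in NMDA + SCF, so the spread of the median gene was wider with PBS too. The NMDA + PBS libraries use both transcript lists and the NMDA + SCF libraries only the first. The part of the lists in this wider spread was not tested.

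The transcript list, depth and read quality of the NMDA + PBS libraries were as follows. Replicate 3 shares the list of replicate 2 and was low for Gfap, Socs3, Osmr, C3 and Stat3, as was replicate 1 with the other list. The 3977096 counted fragments of replicate 2 lay between those of replicate 1 (3404318) and replicate 3 (4440573), and 93.78% of its bases had a quality of 30 or more, against 94.32 and 92.92% in the other NMDA + PBS libraries. Their part in the values was not tested.

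**Figure D2:**
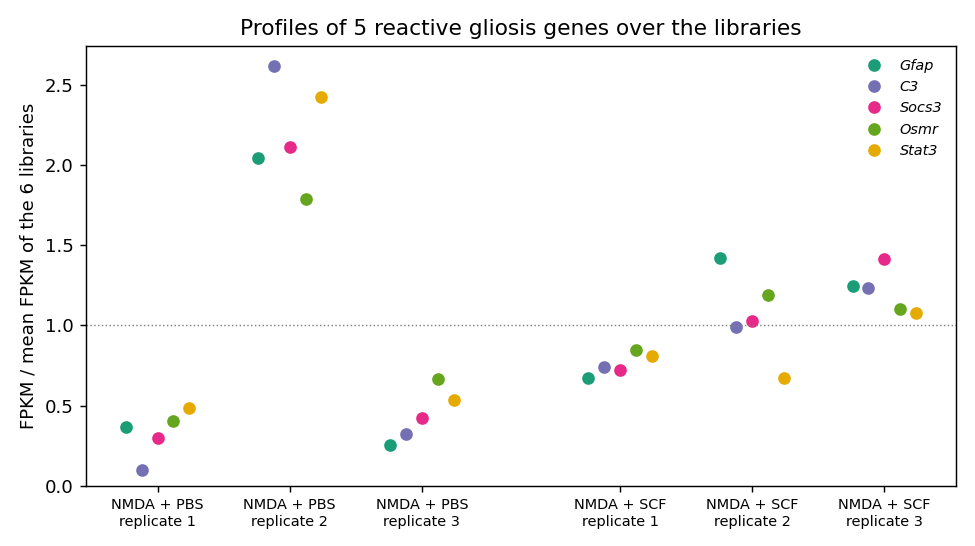
FPKM of Gfap, C3, Socs3, Osmr and Stat3 in each library, divided by the gene's mean over the 6 libraries (dotted line at 1). The 5 genes stand highest in NMDA + PBS replicate 2 and below 1 in NMDA + PBS replicates 1 and 3, with the NMDA + SCF libraries between them.

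The comparison changed when NMDA + PBS replicate 2 was left out. Since that library was the highest for 7 of the 8 genes, leaving it out moves them this way by construction, so the values that follow describe how much rests on it and are no separate evidence of a difference. Against replicates 1 and 3 alone, Gfap, Socs3, Osmr, C3 and Stat3 had an unadjusted p of 0.05 or less (limma), 5 of the 8 genes and all higher with SCF, whereas 7.99% of the 24799 genes then tested did so, 4.29% higher and 3.69% lower. The groups no longer overlapped for 6 of the 8, all higher with SCF, against 13.5% of all genes higher and 11.6% lower. The sixth is Lcn2, with 1 fragment in each of the PBS libraries left and 1, 1 and 8 with SCF, so its separation from 2 of the SCF libraries is 1 fragment against 1, below the floor of 3 fragments. The log2 fold change of Gfap was then 1.78 (SE 0.37, limma adjusted p = 0.480, the lowest over its 15 alternatives, which reached 0.933). That of C3 was 1.89 (SE 0.42, limma adjusted p = 0.492, range over its alternatives 0.166 to 0.997). That of Socs3 was 1.43 (SE 0.33, limma adjusted p = 0.508, range 0.393 to 0.958). All 3 genes were more than 2-fold higher on this scale. For Osmr the value was 0.89 (SE 0.29, limma adjusted p = 0.595, range 0.290 to 0.940), and for Stat3 0.67 (SE 0.25, limma adjusted p = 0.610, range 0.553 to 0.991). No gene of all those tested passed an adjusted p of 0.05 in that fit (limma), where 1981 had an unadjusted p of 0.05 or less. The median over the 8 genes was 0.78, against 0.02 for all genes.

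Leaving out NMDA + PBS replicate 1 moved the values the other way for all but Cd44. Cd44 was -0.29 with all libraries, -0.38 without replicate 2 and -0.39 without replicate 1. Gfap then differed by 0.55 and Socs3 by 0.08, and Osmr and C3 turned to -0.084 and -0.0043, with a median of -0.12 over the 8 genes and none at an unadjusted p of 0.05 (limma). With each of the 6 libraries left out in turn, Gfap stayed between 0.29 and 1.78 and Socs3 between 0.08 and 1.43, both without a change of sign. No left-out library other than NMDA + PBS replicate 2 brought any of the 8 genes to an unadjusted p of 0.05.

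**Figure D3:**
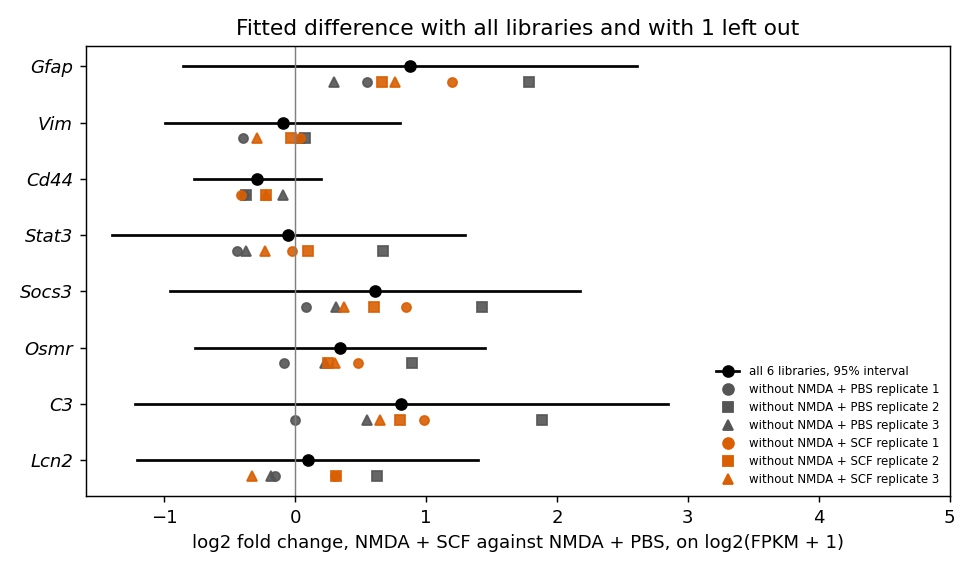
Log2 fold change of NMDA + SCF against NMDA + PBS on log2(FPKM + 1) for the 8 genes, with all 6 libraries (black, line for the 95% interval of limma) and with 1 library left out (coloured marks under each line, by group and replicate). All 8 intervals cross 0, and for 7 of them, all but Cd44, the coloured mark farthest to the right is that without NMDA + PBS replicate 2.

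Genes around these members were read from lists drawn up by function. Of the genes of gp130 cytokines, their receptors and the JAK and STAT proteins, 21 of 25 had a value. Of these, 1 had an unadjusted p of 0.05 or less (limma), higher with SCF, and none lower, against 4.33% of all genes higher and 4.9% lower. The median log2 fold change was -0.21. The most abundant was the transcription factor gene Junb, at 17.2, 147 and 48.5 FPKM with PBS and 14.4, 22.6 and 25.5 FPKM with SCF. NMDA + PBS replicate 2 was the highest library for 9 of the 21 genes (18.8% of all genes). Il6st, which encodes gp130 itself, was 0.53, 26.7 and 20.3 FPKM with PBS and 0.42, 2.17 and 0.36 FPKM with SCF. It was high in both libraries of the second transcript list and low in the 4 of the first, NMDA + PBS replicate 1 among them.

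Other genes that mark reactive astrocytes had values for 24 of 27. None was higher at an unadjusted p of 0.05 and 1 was lower (limma), against 4.33% of all genes higher and 4.9% lower. The lower gene was Ptgs2, the inducible cyclooxygenase, at 0.46, 1.58 and 0.91 FPKM with PBS and 0.07, 0.32 and 0.19 FPKM with SCF (log2 fold change -0.70, limma adjusted p = 0.536). The most abundant gene was S1pr3, a receptor for sphingosine 1-phosphate, at 30.1, 85.9 and 33.6 FPKM with PBS and 61.5, 67.1 and 69.8 FPKM with SCF. It had the same order as Gfap in that NMDA + PBS replicate 2 stood above, and replicates 1 and 3 below, all 3 SCF libraries. NMDA + PBS replicate 2 was the highest library for 10 of the 24 genes (18.8% of all genes). The median log2 fold change was 0.18 over the list and 0.43 without NMDA + PBS replicate 2, when 4 genes had an unadjusted p of 0.05 or less, all higher (4.29% of all genes were higher at that p in that fit). Here too, leaving out that library raises the genes highest in it by construction, so this is no separate evidence of a difference.

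Of the complement list, 12 of 18 genes had a value, and none had an unadjusted p of 0.05 or less in either direction (limma), against 9.22% of all genes. The most abundant was C1qa, a subunit of the recognition protein of the classical pathway, at 72.3, 155 and 16.7 FPKM with PBS and 109, 142 and 153 FPKM with SCF. NMDA + PBS replicate 2 was the highest library for 6 of the 12 (18.8% of all genes) and stood at least 2-fold above both other NMDA + PBS libraries for 5 (2.6% of all genes). The median log2 fold change was 0.43, and 0.87 without NMDA + PBS replicate 2, when 6 of the 12 had an unadjusted p of 0.05 or less, all higher (4.29% of all genes). As for the gliosis genes, leaving out that library raises the genes highest in it by construction. The values without it are therefore no separate evidence of a difference. C1q is made mainly by microglia.

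The ligands, receptors and converting enzymes of the endothelin system, to which Edn2 belongs, had values for all 6 genes of the list, and the most abundant was Edn1, at 5.22, 4.70 and 6.32 FPKM with PBS and 7.64, 6.85 and 7.98 FPKM with SCF. One gene, Ece1, was lower at an unadjusted p of 0.05 (limma), but it rested on 1, 2 and 2 fragments with PBS and 0 in each SCF library, under the limit of 3 fragments that a count of 0 allows. Ednrb, the endothelin receptor of Müller glia, was listed at 0.07 FPKM or less in every library. Among 12 other genes of intermediate filaments and the cytoskeleton below the membrane, Ezr, which links membrane and actin, was higher at an unadjusted p of 0.05, at 23.7, 29.6 and 21.4 FPKM with PBS and 36.9, 31.7 and 38.6 FPKM with SCF (log2 fold change 0.51, limma adjusted p = 0.536). None of the 12 was lower at that p, and the most abundant, Msn, had 48.4, 82.6 and 49.8 FPKM with PBS and 63.0, 54.9 and 49.9 FPKM with SCF. Of 10 matrix genes that act with CD44, 1 was lower at that p, the hyaluronan synthase gene Has1 with at most 6 fragments in a library, and the most abundant, Mmp9, was between 3.61 and 8.56 FPKM. For comparison with these 3 lists, 4.33% of all genes were higher and 4.9% lower with SCF at that p.

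Marker lists of cell types that a retinal sample can hold were read in the same libraries. Of all genes, 4.33% were higher and 4.9% lower with SCF at an unadjusted p of 0.05 (limma). In bulk retina, a change in the number of cells of a type and a change in the RNA of each cell cannot be told apart. Müller glia markers were abundant, with 14 of 15 genes measured and summed levels of 5551, 5572 and 4298 FPKM with PBS and 5546, 6016 and 6179 FPKM with SCF. Their most abundant gene, Glul (glutamine synthetase), was 3899, 1960 and 2202 FPKM with PBS and 3148, 3178 and 2993 FPKM with SCF, and so was not highest in the library with the highest Gfap. The only gene of the list at an unadjusted p of 0.05, Dkk3, was near 0 in the 4 libraries of the first transcript list and 980 and 1007 FPKM in the other 2. Without it and Spon1, which splits the same way, the sums were 5549, 4494 and 3211 FPKM with PBS and 5543, 6012 and 6175 FPKM with SCF. Markers of retinal astrocytes had 8 of 8 genes with values, 2 of them lower at an unadjusted p of 0.05 (limma), Agt, which was listed at 0 in the 4 libraries of the first list, and Aldh1l1, with at most 4 fragments in a library. Their sums were 53.2, 51.6 and 35.9 FPKM with PBS and 34.2, 41.9 and 35.7 FPKM with SCF, with S100b the largest part in the 4 libraries of the first list and Agt in the other 2. Without Agt the sums were 53.2, 22.1 and 14.0 FPKM with PBS and 34.2, 41.9 and 35.7 FPKM with SCF. Pax2 and Gja1 stayed at 0.33 FPKM or less.

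Markers of microglia and macrophages had values for 10 of 15, with none at an unadjusted p of 0.05 (limma, 9.22% of all genes). Like that of the gliosis genes, their summed level was highest in NMDA + PBS replicate 2 and lowest in NMDA + PBS replicates 1 and 3. It was 75.2, 409 and 44.2 FPKM with PBS and 193, 219 and 157 FPKM with SCF. The summed level of the 8 gliosis genes was 75.3, 444 and 73.6 FPKM with PBS and 149, 258 and 263 FPKM with SCF. Within NMDA + SCF the orders differed, with replicate 3 lowest for the markers and highest for the gliosis genes. The microglial sum came mostly from Lyz2, a lysozyme gene of macrophages and other myeloid cells, at 37.5, 349 and 10.3 FPKM with PBS and 151, 176 and 102 FPKM with SCF. Tmem119, a marker of resident microglia, was 6.16, 13.3 and 2.21 FPKM with PBS and 11.3, 9.87 and 11.2 FPKM with SCF, also highest in NMDA + PBS replicate 2. Cx3cr1 was at 0.07 FPKM or less in every library. Of the 10 genes, 6 were highest in NMDA + PBS replicate 2 (18.8% of all genes), Fcer1g among them by 2.60 against 2.58 FPKM. The part of microglia in the values of the gliosis genes was not tested.

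**Figure D4:**
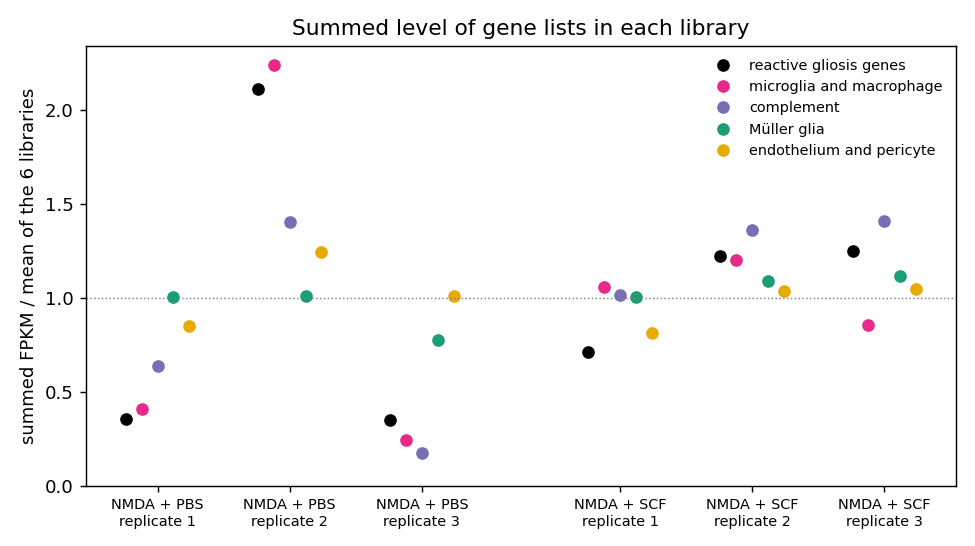
Summed FPKM of 5 gene lists in each library, divided by the list's mean over the 6 libraries (dotted line at 1). The sums of the gliosis genes and of the microglia and macrophage markers are both highest in NMDA + PBS replicate 2 and lowest in NMDA + PBS replicates 1 and 3, while those of Müller glia, with Dkk3 included, and of endothelium and pericytes vary less.

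Markers of other tissues were read in the same way, and none passed an adjusted p of 0.05 (limma). At an unadjusted p of 0.05, 4.33% of all genes were higher and 4.9% lower with SCF. Of 13 lens genes with a value, 11 were higher with SCF at an unadjusted p of 0.05 (limma) and none lower, with sums of 24.3, 194 and 319 FPKM with PBS and 5528, 480 and 10436 FPKM with SCF. Their most abundant gene, Crygs, a lens crystallin, was 16.6, 122 and 149.8 FPKM with PBS and 3273, 354 and 6279.9 FPKM with SCF, and the lens genes Grifin and Bfsp2 had the next smallest p. Of 7 genes of corneal epithelium, 5 were lower with SCF at that p and none higher, among them the keratin genes Krt14 and Krt5. NMDA + PBS replicate 2, with the most Gfap, held 194 FPKM of lens genes. NMDA + SCF replicates 2 and 3, with 182 and 159.7 FPKM of Gfap, held 480 and 10436 FPKM of lens genes, the latter the highest lens sum. Markers of neutrophils, which express Lcn2, summed to between 2.64 and 4.91 FPKM per library, mostly Camp, and none of the 6 with a value passed an unadjusted p of 0.05 (limma). Of 10 markers of endothelium and pericytes, the actin gene Acta2 was lower at that p, at 45.3 and 22.0 FPKM in the libraries of the second transcript list and at most 0.81 FPKM in the others, and the most abundant, Rgs5, was between 76.7 and 97.6 FPKM. Of 9 rod genes 2 were higher at that p, Pde6b and Nrl, of 5 genes of the ciliary body and iris 2 were higher, Wfdc1 and Msx1, and of 9 genes of the pigment epithelium none passed it. Of 8 ganglion cell genes 2 were lower, Nefh and Slc17a6, both high only in the libraries of the second list. The part of these tissues in the values of the gliosis genes was not tested.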

How the data were processed

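RNA-seq values of 3 NMDA + PBS and 3 NMDA + SCF libraries were analysed. The authors deposited FPKM per transcript for each library and a table of totals that gives clean reads (44925938 to 48783182) and sequencing quality as percentages. Its 4 other columns were not used. The submitters' processing notes name mm9, but 98.2% of 63313 Ensembl transcripts lay at the positions of GENCODE M21 (GRCm38), which is used here. The aligner and counter are not given in the sources used here. Transcripts assembled by the authors, with no gene name, took 8.85 to 11.4% of the FPKM sum and were left out.

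Gene values are sums of FPKM over 46933 Ensembl transcripts, those that the first and the second list share (7529 were in the first only and 8966 in the second only). Genes above 0 in any library were compared on log2(FPKM + 1) by limma (version 3.58.1, R 4.3.3) with trended variance and Benjamini-Hochberg adjustment over all genes. Value times length was whole, within 0.05 of a fragment, for 98.4 to 98.5% of values, so fragments were recovered for depth, for a floor of 3 fragments and for voom (limma), which called 2 genes at an adjusted p of 0.05. Intervals and floors cover counting error or library spread only. The procedure was tested on simulated data. The members and lists were chosen with earlier results of these data known. All members are named, with the most abundant gene of each other list and up to 3 genes of the smallest unadjusted p up to 0.05, and defining markers. Il6st was named after its values were seen. A few single-gene results that this rule would name are left out. Alternatives were another pseudocount, other scalings, a filter, all transcripts, voom, no trend, a replicate block, each library left out and the first list only. Plots used Python 3.11.15.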

Additional observations from a re-analysis of the deposited data

Results flagged for a closer look

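Edn2, which encodes endothelin 2, a peptide that injured photoreceptors make and that acts on Müller glia, lies outside the comparison because its single coding transcript, ENSMUST00000030384, is listed in the second transcript list only. It had 645 FPKM in NMDA + PBS replicate 2, from 3749 fragments, and 47.8 FPKM in NMDA + PBS replicate 3, from 310 fragments. Both values are far above the floor of 3 fragments, and the first exceeds the Gfap level of every library. The library with the higher Edn2 value is the one in which Gfap, C3, Socs3, Osmr and Stat3 were highest. Since the tables of the other 4 libraries give no value for it, Edn2 could not be compared between the groups. No group was large enough for a search for single outlying libraries, since each holds 3.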

How the results depend on the processing

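No alternative brought any of the 8 genes past an adjusted p of 0.05. Genes called at a fold of 2 and an adjusted p of 0.001 numbered 0 with all libraries and between 0 and 191 with a library left out. At an adjusted p of 0.05 there were between 0 and 909 (the most without NMDA + PBS replicate 1), and at an unadjusted p of 0.05, 2324 with all libraries and between 1150 and 4332. At an adjusted p of 0.05, voom called 2 genes and the libraries of the first list 311. Of the 8 genes, between 0 and 5 passed an unadjusted p of 0.05 with a library left out, and 3 in the libraries of the first list (10.9% of the 23943 genes tested there), where the lone NMDA + PBS library is assumed to vary like the others; that test was added after seeing the data, as were fits of single transcripts. Genes of the other lists at that p numbered 31 with all libraries, 11 of them lens genes and 5 of corneal epithelium (9.22% of all genes were at that p). They numbered 20 under the filter of 1 FPKM in 3 libraries, which drops Lcn2 and Cd44, and between 15 and 45 with a library left out.

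The direction turned for Lcn2 (between -0.33 and 0.63 with a library left out), Osmr (-0.084 to 0.89), C3 (-0.0043 to 1.89), Vim (-0.40 to 0.079) and Stat3 (-0.44 to 0.67). In the libraries of the first list, which set 1 NMDA + PBS library against 3, Vim (0.51) and Stat3 (0.74) also turned, C3 was 2.44, Socs3 1.66, Gfap 1.53 and Osmr 1.21, and the median over the genes was 0.97. That fit drops NMDA + PBS replicate 2, the highest library for 7 of the 8 genes. Its lone NMDA + PBS library, replicate 1, was the lowest for 5 of the 8. The fit thus moves the values upward by construction and is no separate evidence of a difference. The median over the genes lay between -0.12 and 0.78 with a library left out. Apart from which libraries were kept and their lower number, the cause was not tested. Same-numbered libraries did not deviate together (correlations of -0.0503, -0.0459 and -0.0774). These values gave no sign of pairing but cannot show how the libraries were prepared, and the labels do not say whether the numbers pair them. With the replicate block, 1856 genes and 0 of the 8 had an unadjusted p of 0.05 or less, and 0 genes an adjusted p of 0.05.

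Lcn2, Cd44 and Vim rest on few fragments, at most 8, 7 and 16 in a library. Both lists hold 0 of the 2 coding transcripts annotated for Lcn2, 1 of the 8 for Cd44 and 1 of the 3 for Vim. The part of depth in this was not tested. With a pseudocount of 0.1 the median over the 8 genes was 0.40, and the fold changes of Lcn2 and Cd44 were 0.41 and -1.29.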
